A study of Mus musculus with 8 samples.

Results

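Insulin and the insulin-like growth factors act through a small set of proteins, and their transcripts were followed here in neurospheres with and without FoxO3. The members are 10 of the 18193 genes with a probe set of their own on the array, chosen by symbol: the receptors Insr, Igf1r and Igf2r, the docking proteins Irs1 and Irs2, the ligands Igf1 and Igf2, and the binding proteins Igfbp2, Igfbp3 and Igfbp5. Every probe set that the platform annotation gives to one of these symbols was taken, which gave 24 of 45037 tested probe sets. Of the 24, 23 carry 1 symbol alone, and 1 is shared between Igf2r and Airn, a non-coding RNA antisense to it, and stands for neither gene.

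The samples were secondary neurospheres, passaged balls of neural stem and progenitor cells from mouse forebrain, on the FVB/N background. FoxO3 null mutants were compared with wild type (FoxO3+/+) animals, 4 Affymetrix Mouse430_2 arrays per genotype. Both genotypes were grown in NeuroBasal-A with B27 without vitamin A, bFGF at 20 ng/ml and EGF at 20 ng/ml, seeded at 50000 cells/ml and collected on day 6. Array titles carry a set, 1 or 2, and a number within it, so that wild type array 2_1 is the first of set 2, and each set has 2 arrays of each genotype. What distinguishes the sets, the age and sex of the mice, the part of Foxo3 that is missing, and whether the arrays of a genotype are separate cultures or animals are not given in the sources used here, so p-values measure no more than how far these arrays scatter, which may be technical.

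Insulin and IGF1 bind receptor tyrosine kinases, which phosphorylate the IRS docking proteins and so switch on PI3K and Akt. Akt phosphorylates FoxO factors and holds them out of the nucleus, and in several tissues FoxO factors are known in turn to raise transcription of Insr and Irs2 when insulin is low. IGF2 is taken up and degraded through Igf2r, and the IGF binding proteins hold IGFs outside the cell. B27 supplement itself contains insulin, so these cultures were not deprived of it.

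Values are log2 RMA signals, and a log2 fold change is FoxO3 null minus wild type, from limma over all 45037 probe sets with set as a term. A probe set passed at a Benjamini-Hochberg adjusted p under 0.05 over all of them. Signals of different probe sets depend on their probes, so no gene's level is set against another's. In bulk samples fewer cells of a type and less RNA per cell cannot be told apart.

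Array medians lay between 6.27 and 6.31. The 2 brightest Foxo3 probe sets were at 44.5% and 47.8% of wild type in FoxO3 null arrays (limma adjusted p = 0.000649 and 0.0021), which checks the labels only if their probes lie in the deleted part. The dimmest Foxo3 probe set went the other way, with every FoxO3 null array above every wild type array (126% of wild type, limma adjusted p = 0.110), and did not pass. Above the median probe set were 9 of 9 measured neural stem and progenitor markers, 7 of 7 astrocyte and 7 of 7 oligodendrocyte lineage markers. So were 4 of 8 neuron, 2 of 7 microglial and 0 of 8 pericyte and fibroblast markers. Such counts depend on the probes as well. The sets stood apart: 38.4% of all probe sets and 12 of the 23 members differed between sets 1 and 2.

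The receptors for insulin and IGF1 and 1 binding protein were each called lower in FoxO3 null spheres in 1 probe set, while their other probe sets did not pass. No member was called higher. Of the 23 probe sets 3 passed, which is 13.0%, against 0.802% of all probe sets. The 3 are Insr 1434446_at, Igf1r 1452982_at and Igfbp5 1452114_s_at, and each was lower in FoxO3 null arrays, a direction in which 0.586% of all probe sets passed. Unadjusted, 10 of the 23 had a limma p under 0.05, against 5724 of all 45037. As higher 0 of 23 passed, against 0.215% of all. Every FoxO3 null array lay below every wild type array in 4 of the 23 probe sets (1.33% of all), and every one lay above in 0 (1.78% of all). The members did not shift together: 12 fold changes were negative and 11 positive, with a median of -0.024 on the log2 scale against 0.0098 over all probe sets.

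**Figure D1:**
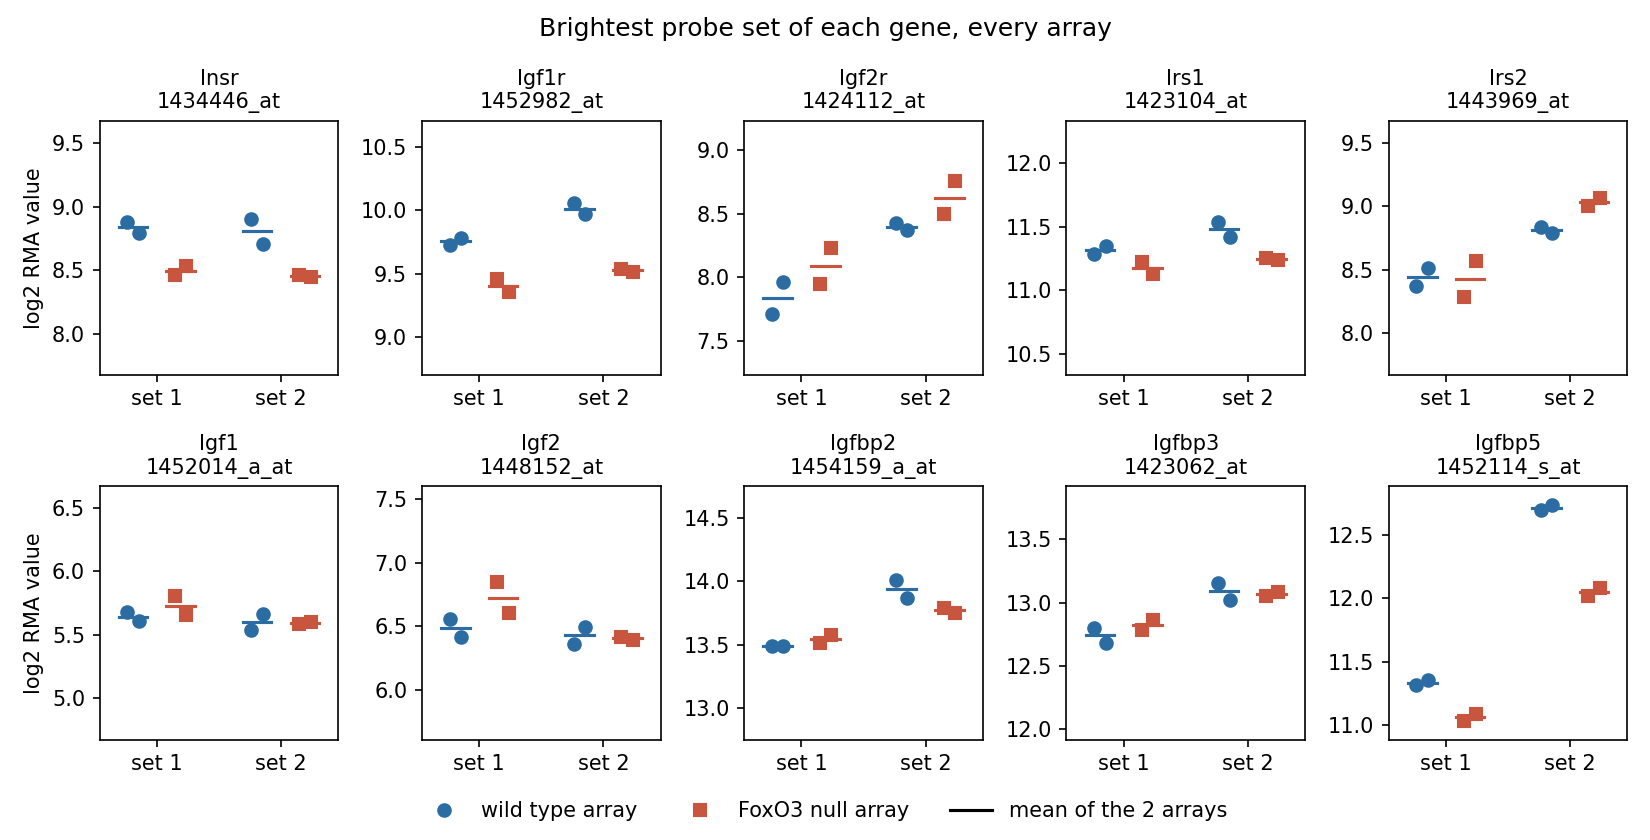
Log2 RMA value of the brightest probe set of each of the 10 genes in every array, by set, with wild type arrays as circles, FoxO3 null arrays as squares and the mean of the 2 arrays as a line. Each panel spans at least 2 log2 units; Insr and Igf1r are lower in all 4 FoxO3 null arrays, and Igfbp5 is lower within each set but differs more between sets.

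Insr, the insulin receptor, was lower in 1 of its 3 probe sets. In 1434446_at the wild type arrays read 8.88 and 8.80 in set 1 and 8.91 and 8.71 in set 2. The FoxO3 null arrays read 8.46 and 8.53 in set 1 and 8.46 and 8.45 in set 2. All 4 FoxO3 null arrays were below all 4 wild type arrays, and the sets were alike. The log2 fold change was -0.35 ± 0.06 (SE; limma adjusted p = 0.0287, n = 4 each), or 78.6% of the wild type signal. The difference was -0.34 in set 1 and -0.35 in set 2. The other Insr probe sets, both dimmer than the median probe set, had log2 fold changes of 0.033 (95% interval -0.11 to 0.18) and -0.035 (-0.19 to 0.12), and their groups overlapped. The difference between the 2 brighter Insr probe sets within an array had a mean of 3.16 for wild type and 2.78 for FoxO3 null, and within each set no FoxO3 null array reached a wild type one. With arrays exchanged over both sets the exact permutation p was 0.114 (two-sided), and that test takes in the spread between sets, which is large for 1450225_at. An exact permutation test that exchanged arrays only within their set, added after seeing the data, gave p = 0.0556, the smallest its 36 exchanges allow, so that design cannot reach the threshold. The Insr call is the least stable of the 3: with the array numbers as a replicate block its adjusted p was 0.0726, and it passed without wild type array 2_2 (0.0349) but missed the threshold without any other single array (0.0522 to 0.111).

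Igf1r, the receptor for IGF1, had a negative fold change in all 5 of its probe sets, and 1 passed. In the brightest, 1452982_at, wild type arrays read 9.73 and 9.78 in set 1 and 10.05 and 9.97 in set 2. FoxO3 null arrays read 9.46 and 9.35 in set 1 and 9.54 and 9.52 in set 2. The groups did not overlap. The log2 fold change was -0.42 ± 0.06 (SE; limma adjusted p = 0.0106), or 74.9% of wild type, with -0.35 in set 1 and -0.48 in set 2. Without wild type array 2_1 the adjusted p was 0.0515; leaving out any other array, or adding the replicate block (0.0445), kept the call.

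The next brightest Igf1r probe sets had changes of like size that did not pass. In 1426565_at wild type arrays read 7.94, 7.90, 7.80 and 7.79 and FoxO3 null arrays 7.31, 7.64, 7.56 and 7.61, in the order 1_1, 1_2, 2_1, 2_2. Here too no array of one genotype reached the other, yet the log2 fold change of -0.33 ± 0.08 had a limma adjusted p of 0.104. Probe set 1428967_at read 7.41 and 7.05 in wild type and 6.61 and 6.91 in FoxO3 null arrays of set 1. Set 2 gave 8.17 and 8.03 in wild type and 7.73 and 7.74 in FoxO3 null arrays. It was lower within each set (-0.42 ± 0.09, adjusted p = 0.0767), but it was 1.90 times as high in set 2 as in set 1, so the genotypes overlapped across sets. The last 2 Igf1r probe sets had log2 fold changes of -0.22 (95% interval -0.52 to 0.080) and -0.024 (-0.19 to 0.14).

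Igf2r, which carries IGF2 to lysosomes and also sorts lysosomal enzymes, had 2 probe sets of its own with opposite signs. Probe set 1424112_at read 7.71 and 7.96 in wild type and 7.95 and 8.23 in FoxO3 null arrays of set 1. The values in set 2 were 8.43 and 8.37 in wild type and 8.50 and 8.76 in FoxO3 null arrays. Its log2 fold change was 0.24 ± 0.09 (limma adjusted p = 0.272). Probe set 1424111_at read 6.89 and 6.73 against 6.67 and 6.70 in set 1 and 7.47 and 7.40 against 7.08 and 7.28 in set 2, wild type first. Its log2 fold change was -0.18 ± 0.07 (adjusted p = 0.276), and neither passed. The difference between these 2 probe sets within an array was 0.82 to 1.24 in wild type and 1.28 to 1.53 in FoxO3 null arrays, with no overlap (exact permutation p = 0.0286, two-sided, the smallest that 4 against 4 arrays can give). That comparison was chosen after the values were seen; made for all 7 members with over 1 probe set, its Benjamini-Hochberg adjusted exact p was 0.2. With arrays exchanged only within their set the exact permutation p was 0.0556 for Igf2r, as for Insr (0.194 after Benjamini-Hochberg adjustment over the 7). The probe set shared with Airn had a log2 fold change of 0.085 ± 0.090 (limma adjusted p = 0.777).

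**Figure D2:**
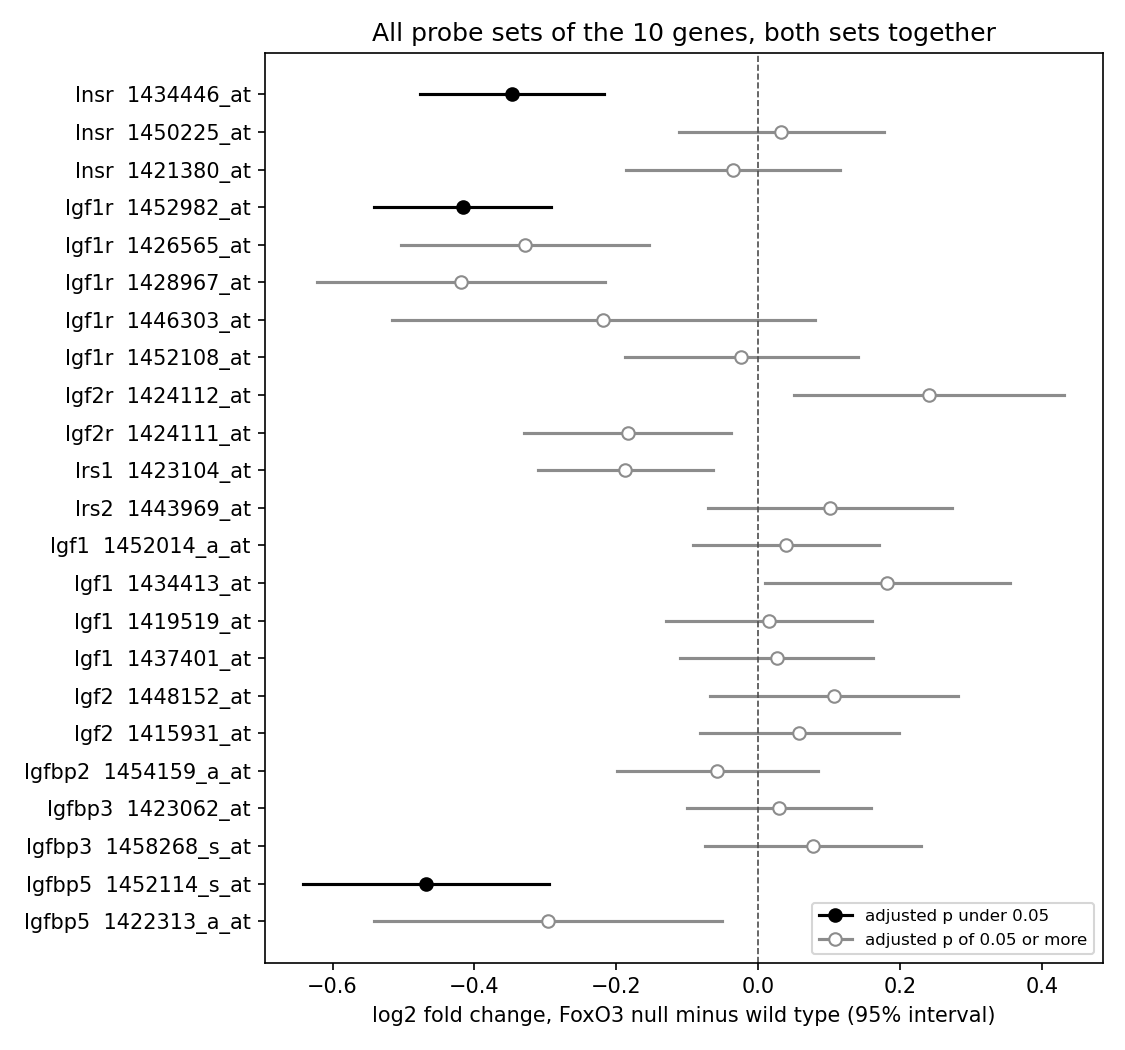
Log2 fold change, FoxO3 null minus wild type, of the 23 probe sets with the 95% interval of the limma fit; filled points passed at an adjusted p under 0.05. The 5 Igf1r probe sets all lie below 0, and the 2 Igf2r probe sets lie on opposite sides.

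Neither docking protein passed. Irs1 1423104_at read 11.28, 11.35, 11.54 and 11.42 in wild type and 11.23, 11.13, 11.25 and 11.24 in FoxO3 null arrays 1_1 to 2_2. Every FoxO3 null array lay below every wild type array, by a small step. The log2 fold change was -0.19 ± 0.06 and did not pass (limma adjusted p = 0.187); it passed when limma modelled a trend of variance with signal (0.0448). Irs2 1443969_at read 8.37 and 8.51 in wild type and 8.28 and 8.57 in FoxO3 null arrays of set 1, where the genotypes overlapped. In set 2 it read 8.84 and 8.79 in wild type and 9.00 and 9.06 in FoxO3 null arrays, which were the higher ones. Over both sets its log2 fold change was 0.10 ± 0.08 (adjusted p = 0.664).

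Promoter sequence was set beside these values for 9 of the 10 genes, from RefSeq windows (GRCm38.p6) that run from 250 bases before a gene's start to 50 after it; Insr had no entry. The windows were searched on both strands for the FoxO core motif GTAAACA and for CAAAACA, the core of the insulin response element. The FoxO core was in 0 of the 13 member windows and in 3.65% of 32851 windows genome-wide. The insulin response core was in 2 of 13, those of Irs1 and Irs2, and in 6.28% of all windows. It stood at -111 to -105 and -32 to -26 in Irs1 and at -37 to -31 in Irs2, where -1 is the last base before the start. The bases before the start follow for Irs1 and Irs2, which hold the motif. They follow too for Igf1r and Igfbp5, each called lower in FoxO3 null spheres in 1 probe set, which hold neither motif. Capitals mark CAAAACA, which lies on the opposite strand in Irs1 and Irs2 and so reads there as TGTTTTG. Each sequence runs 5′ to 3′ on the gene's strand, and a match is only a match of letters.
Irs1, chr1:82291440-82291689, minus strand: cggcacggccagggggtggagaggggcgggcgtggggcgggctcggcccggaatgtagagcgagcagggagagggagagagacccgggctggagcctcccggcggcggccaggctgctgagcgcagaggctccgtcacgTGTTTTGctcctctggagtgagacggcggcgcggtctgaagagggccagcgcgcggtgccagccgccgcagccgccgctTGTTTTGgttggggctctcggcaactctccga
Irs2, chr8:11008930-11009179, minus strand: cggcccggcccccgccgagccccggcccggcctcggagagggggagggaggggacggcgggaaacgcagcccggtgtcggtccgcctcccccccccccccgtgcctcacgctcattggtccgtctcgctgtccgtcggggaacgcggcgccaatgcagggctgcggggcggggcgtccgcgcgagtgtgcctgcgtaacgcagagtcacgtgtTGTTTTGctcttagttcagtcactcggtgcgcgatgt
Igf1r, chr7:67952007-67952256, plus strand: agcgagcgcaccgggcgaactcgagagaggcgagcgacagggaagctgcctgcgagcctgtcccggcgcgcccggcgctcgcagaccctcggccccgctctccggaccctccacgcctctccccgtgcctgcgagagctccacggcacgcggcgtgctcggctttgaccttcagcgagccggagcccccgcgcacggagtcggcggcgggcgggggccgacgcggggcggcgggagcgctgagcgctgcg
Igfbp5, chr1:72874866-72875115, minus strand: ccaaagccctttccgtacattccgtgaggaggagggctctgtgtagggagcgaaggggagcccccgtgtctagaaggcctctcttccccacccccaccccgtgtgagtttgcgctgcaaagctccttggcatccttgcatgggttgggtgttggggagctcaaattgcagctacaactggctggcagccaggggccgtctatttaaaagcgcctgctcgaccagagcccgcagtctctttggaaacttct
The first 3 are rich in G and C (72.4%, 72.8% and 77.6%), and Igfbp5 less so (58.8%), against a median of 52.4% over all windows. The 2 genes with the insulin response core, Irs1 and Irs2, had fold changes of opposite sign, and neither passed.

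Neither ligand passed, and Igf1 was dim. Igf1, the growth factor that signals through Igf1r, has 4 probe sets, all below the median probe set, with log2 fold changes from 0.015 to 0.18. The largest was in 1434413_at, which read 4.96 and 5.13 in wild type and 5.07 and 5.03 in FoxO3 null arrays of set 1. Set 2 gave 5.02 and 4.96 in wild type and 5.38 and 5.31 in FoxO3 null arrays. The FoxO3 null arrays of set 2 thus stood above all others (0.36 there, 0.0082 in set 1), but neither the genotype nor the interaction with set passed (limma adjusted p = 0.366 and 0.506). Igf2, an imprinted fetal growth factor, read 6.37 to 6.56 in wild type and 6.39 to 6.85 in FoxO3 null arrays in its brighter probe set, 1448152_at. Its log2 fold changes were 0.11 ± 0.08 and 0.058 ± 0.063 (adjusted p = 0.644 and 0.785). Igf2 1415931_at was below the median probe set too, and 1448152_at lay close to it. RMA compresses differences of dim probe sets, so these values bound Igf1 and Igf2 only loosely.

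Among the binding proteins Igfbp5 was called lower in 1 of its probe sets, while Igfbp2 and Igfbp3 gave narrow intervals around 0. Igfbp5, which binds IGFs in the extracellular matrix, read 11.31 and 11.35 in wild type and 11.03 and 11.09 in FoxO3 null arrays of set 1 in 1452114_s_at. In set 2 it read 12.69 and 12.73 in wild type and 12.02 and 12.08 in FoxO3 null arrays. FoxO3 null arrays were lower within each set, but the step between sets was larger: set 2 read 2.27 times set 1. The log2 fold change was -0.47 ± 0.08 (SE; limma adjusted p = 0.0280), or 72.3% of wild type, with -0.27 in set 1 and -0.66 in set 2. The interaction of genotype with set did not pass (-0.39, limma adjusted p = 0.366). The affix _s_at marks a probe set that can match transcripts of more than 1 gene.

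The second Igfbp5 probe set, 1422313_a_at, did not pass. It read 9.03 and 8.86 in wild type and 9.04 and 8.78 in FoxO3 null arrays of set 1. In set 2 the values were 10.19 and 10.14 against 9.50 and 9.71, with the wild type arrays first. Its log2 fold change was -0.031 in set 1, -0.56 in set 2 and -0.30 ± 0.11 over both (limma adjusted p = 0.298; interaction adjusted p = 0.434). The call of 1452114_s_at was lost with a replicate block (adjusted p = 0.0855) and without wild type array 1_1, 2_1 or 2_2 or FoxO3 null array 2_1 or 2_2 (0.0618 to 0.114).

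Igfbp2, a main IGF binding protein of the brain, had its only probe set near the top of the signal range. It read 13.49 and 13.49 in wild type and 13.51 and 13.57 in FoxO3 null arrays of set 1. In set 2 it read 14.01 and 13.87 in wild type and 13.79 and 13.75 in FoxO3 null arrays. The log2 fold change was -0.057 (95% interval -0.20 to 0.084; limma adjusted p = 0.791). In the RefSeq gene order Igfbp2 is the coding gene next to Igfbp5. Igfbp3, the main carrier of IGFs in blood, read 12.68 to 13.16 in wild type and 12.78 to 13.08 in FoxO3 null arrays in 1423062_at. Its 2 probe sets had log2 fold changes of 0.029 (-0.10 to 0.16) and 0.078 (-0.074 to 0.23), and their groups overlapped. RMA signals this high can be compressed as well, and saturation cannot be read from these values.

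**Figure D3:**
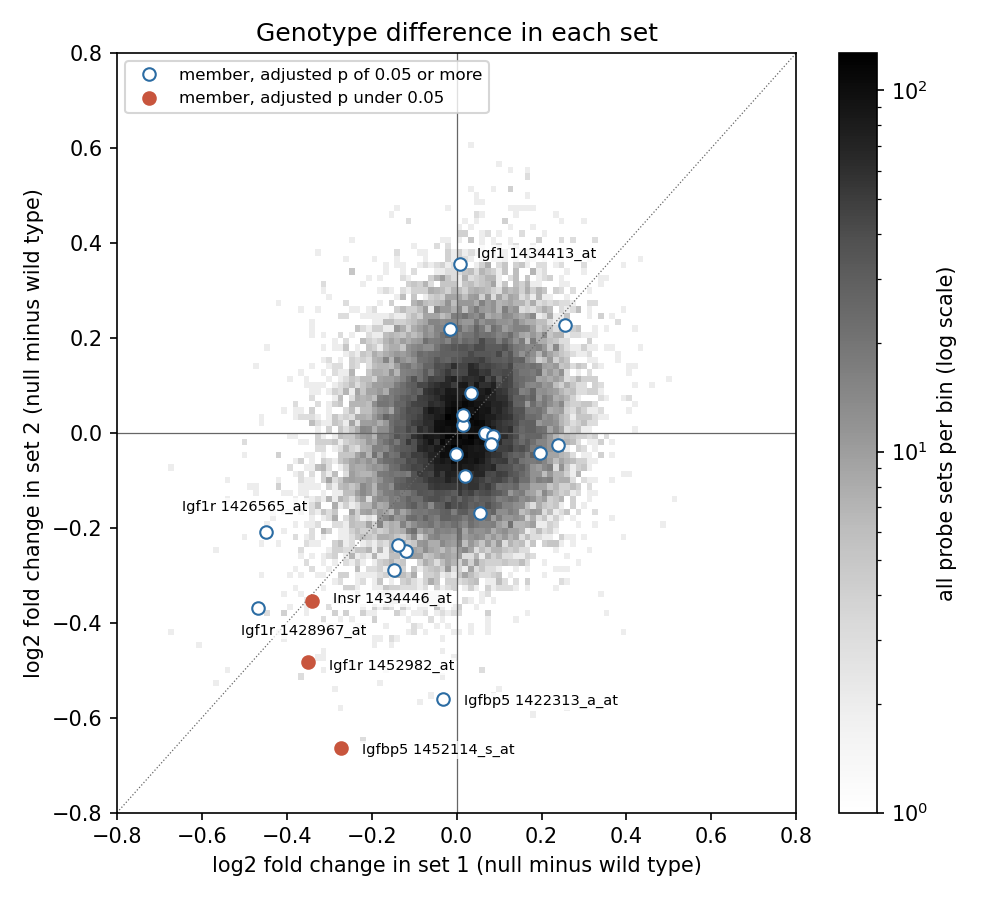
Log2 fold change (FoxO3 null minus wild type) in set 1 on the x axis and set 2 on the y axis, with members as points over the density of all probe sets; 177 probe sets lie beyond 0.8 and are not drawn. Insr 1434446_at and Igf1r 1452982_at lie near the diagonal, while both Igfbp5 probe sets are lower in set 2 than in set 1.

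Within each set alone, with 2 arrays against 2, few members passed. In set 1 it was 0 of 23 (0.0933% of all probe sets), where 0.0533% of all passed as lower. At an unadjusted limma p under 0.05 it was 6 members, a count without its share over all probe sets, so nothing is read from it. In set 2 it was 1 of 23, Igfbp5 1452114_s_at, which was lower (adjusted p = 0.0335; 0.324% of all passed, and 0.184% as lower). The sign was the same in both sets for 15 of the 23, against 55.6% of all probe sets. FoxO3 null arrays lay below wild type arrays within each set in 7 of the 23 (5.25% of all) and above in 0 (6.67% of all). Those 7 are Insr 1434446_at, Igf1r 1452982_at, 1426565_at and 1428967_at, Igf2r 1424111_at, Irs1 1423104_at and Igfbp5 1452114_s_at. In the test of the genotype-by-set interaction 0 of the 23 passed, against 0.0688% of all. At an unadjusted limma p under 0.05 it was 3 of the 23 and 3396 of all 45037.

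Igf1r, Insr, Igfbp5 and Irs1, the last of which did not pass, had correlated values across arrays. After each set was centred, the brightest probe sets of Igf1r and Irs1 had a Pearson r of 0.966 over the 8 arrays, Igf1r and Igfbp5 0.943, and Igf1r and Insr 0.938. These pairs share the difference between genotypes and the same arrays, so these are descriptions. The genes most like Igf1r by this measure were Vamp4, a vesicle fusion protein (r = 0.993), Gabbr1, a GABA-B receptor subunit (0.987), and Slc1a2, a glutamate transporter of astrocytes (0.986). Nearest to Insr were Pygb, a glycogen phosphorylase (1.00), Scrg1 (0.985) and Mkrn1 (0.984), and nearest to Igfbp5 were Rtl8c (0.997), Basp1 (0.995) and Car11 (0.995). These 9 had the highest r over 8 arrays among all genes above the median level, with members that were themselves lower. A lower value in FoxO3 null arrays was thus built into the choice and is no separate result. Of the 9, Gabbr1, Slc1a2, Scrg1, Basp1 and Car11 were called lower, as were 0.586% of all probe sets. Hilpda, a lipid droplet protein, was nearest to Irs1 (0.989), Gas7 to Igf2r (0.990) and Thumpd1 to Irs2 (0.974). Those nearest to Igf1, Igf2, Igfbp2 and Igfbp3 were Tigd5 (0.973), 4933401H06Rik (0.991), Atp10a (0.986) and Oaf (0.980), none of which was called.

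Of the other listed genes of insulin, IGF and PI3K signalling, 1 was called over both sets. Of 49 listed, 43 were measured by probe sets of their own, 117 in all, and 2 probe sets passed, both lower and both of Htra1. That is 1.71% of them, against 0.802% of all probe sets; the median log2 fold change was 0.0088. Htra1, a secreted serine protease that can cleave IGF binding proteins, read 10.52, 10.56, 11.01 and 10.86 in wild type and 10.20, 10.21, 10.56 and 10.57 in FoxO3 null arrays in 1438251_x_at. It was lower within each set, at 78.2% of wild type (-0.35 ± 0.05 (SE), limma adjusted p = 0.0168), and its other passing probe set gave -0.38 ± 0.07 (0.0287). Without wild type array 1_1 or 2_1, or FoxO3 null array 1_2 or 2_1, 0 of the 117 passed (15 to 19 at an unadjusted limma p under 0.05). The share of all probe sets at that cut is not given for these fits, so nothing is read from those counts. With all arrays 22 of the 117 had such an unadjusted p, against 5724 of all 45037.

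In the other roles 0 probe sets passed over both sets. Among the 15 of ligands and relatives the smallest p was at Igfbp7 1423584_at, an IGF binding protein relative (-0.25 ± 0.10, limma adjusted p = 0.329). The other Igfbp7 probe sets gave 0.071 and -0.020. Among the 19 of PI3K subunits the smallest p was at Pik3r1, the p85 regulatory subunit (0.29 ± 0.07, adjusted p = 0.0887). Among the 16 of kinases it was at Akt1 (0.16 ± 0.05, adjusted p = 0.227), and among the 12 of receptor trafficking and processing at Mdm2, a ubiquitin ligase (0.23 ± 0.06, adjusted p = 0.148). Of the 15 of brakes and phosphatases it was at Socs3, a suppressor of cytokine signalling (0.37 ± 0.09, adjusted p = 0.122). Of the 19 of receptor relatives and adaptors it was at Grb10 1425458_a_at (-0.42 ± 0.18, adjusted p = 0.354). Grb10 is an imprinted adaptor that restrains the insulin receptor, and its other probe sets gave -0.026 and 0.043.

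Grb10 and Socs2, which restrains growth hormone and IGF signalling, differed between the sets. In the interaction test 2 of the 117 pathway probe sets passed, against 0.0688% of all. In set 2 alone 3 of the 117 passed, against 0.324% of all. Grb10 1425458_a_at had a log2 fold change of 0.12 in set 1 and -0.97 in set 2 (limma interaction adjusted p = 0.0144). Socs2 1418507_s_at had 0.069 in set 1 and 1.10 in set 2 (interaction adjusted p = 0.0238). A second Socs2 probe set passed in set 2 alone (0.64, adjusted p = 0.0388) but not in the interaction test (0.264). The other Socs2 probe sets, all below the median probe set, had -0.062, -0.034, 0.17 and -0.023 in set 2. The 6 Igfbp4 probe sets, of another IGF binding protein, were higher in FoxO3 null arrays of set 1 and lower in set 2. In the brightest it was 0.45 and -0.19, and none passed the interaction test (limma adjusted p = 0.115 to 0.239).

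Other measures moved with genotype in the same arrays. The mean of 9 Y-linked probe sets was lower in FoxO3 null arrays within each set: 6.35 and 6.39 in wild type against 6.14 and 6.19 in set 1, and 6.07 and 6.10 against 5.64 and 5.80 in set 2 (log2). With that mean as a covariate the log2 fold changes were -0.35 for Igf1r, -0.28 for Insr and -0.087 for Igfbp5. None of the 3 passed (limma adjusted p = 0.689, 0.784 and 0.962). No probe set of all 45037 passed in this fit, so the loss of these calls is not particular to them. The correlation of the Y-linked mean with genotype within sets was -0.925, so in this fit a share of male cells and genotype cannot be told apart. For actin, the 3′ control probe set minus the 5′ one, a sign of RNA quality, was 0.52 and 0.54 in wild type and 0.47 and 0.49 in FoxO3 null arrays of set 1, and overlapped in set 2; its part in the results was not tested.

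Markers of cell types that such spheres can hold moved in part. In the oligodendrocyte lineage list Pdgfra, Cspg4 and Sox10 fell among 7 measured genes. Mbp, a myelin protein, had a log2 fold change of 0.44 over both sets and did not pass (limma adjusted p = 0.238), but it rose in set 1 alone (0.87, adjusted p = 0.0338; 0.015 in set 2). Mog (0.24) and Olig1 (0.046) were positive and Olig2 negative (-0.043), and none of them passed. The log2 of the list's summed signal was 14.68 and 14.71 in wild type against 14.82 and 14.83 in FoxO3 null arrays of set 1, and 15.33 and 15.36 against 15.28 and 15.39 in set 2. This sum rests mostly on Olig1, Mbp and Olig2 (mean log2 signals 14.2, 12.7 and 12.5). It can hardly register Pdgfra, Cspg4 and Sox10 (8.1, 8.6 and 8.1). The sums of the other lists are likewise weighted to their brightest probe sets, such as Fabp7 (14.6) and Vim (13.9) among stem and progenitor markers. In the astrocyte list Slc1a2 fell among 7, with a summed signal of 14.45 to 14.61 and 14.44 to 14.57. Of the 9 neural stem and progenitor markers 0 passed, with Nes at 0.29 (limma adjusted p = 0.0567), Sox2 at -0.26 (0.183) and a median of -0.027. That list's summed signal was 15.888 and 15.896 in wild type against 15.868 and 15.877 in FoxO3 null arrays of set 1. In set 2 it was 15.913 and 15.867 against 15.815 and 15.866. In the neuron, microglia, endothelium, pericyte and fibroblast, choroid plexus, ependyma and erythroid lists 0 markers passed in limma. The pericyte and fibroblast sum was 8.62 to 8.65 in wild type and 8.55 to 8.75 in FoxO3 null arrays, and that of choroid plexus 8.36 to 8.47 and 8.35 to 8.53. RMA values have no true 0, and the part of any cell type in the members' values was not tested.

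**Figure D4:**
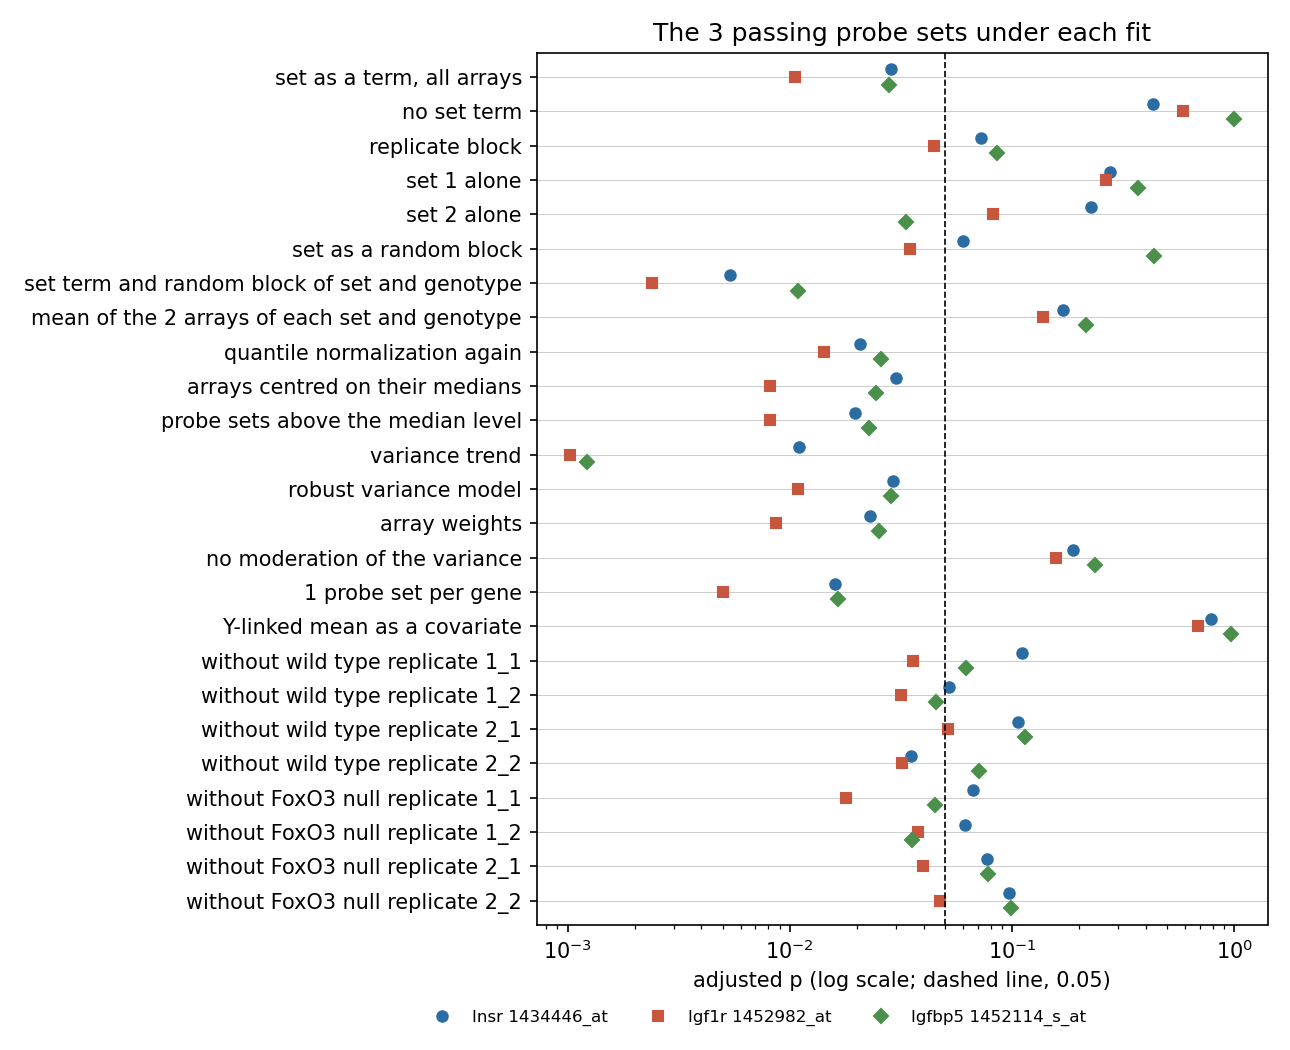
Adjusted p (log axis; dashed line at 0.05) of the 3 member probe sets that passed, in the fit with set as a term and under 24 other fits. Igf1r 1452982_at stays under 0.05 in 17 of the 24, Igfbp5 1452114_s_at in 12 and Insr 1434446_at in 9.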

How the data were processed

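Values were 1 table of log2 expression values, made by the authors with RMA, per the submitters' processing notes; RMA corrects background, quantile-normalizes arrays and summarises probe sets. Its version and any genome build are not given in the sources used here. Quantile normalization hides shifts shared by all genes. The 64 control probe sets were left out of 45101. Gene symbols came from the platform annotation, and a probe set given more than 1 symbol was assigned to none of them. Listed genes without a probe set of their own were not analysed here.

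The test of genotype was two-sided, from lmFit and eBayes (limma 3.58.1, R 4.3.3), with set as an additive term, then in each set, and for the interaction. Members, lists and alternatives were chosen with earlier results of these data known. Named were all members, Foxo3, Y-linked genes, passing pathway genes or else the smallest p per role, and the 3 genes most correlated with each member (set-centred r), of which only the first is given for members that did not pass. Igfbp4 was named besides, after its values in each set were seen. On simulated arrays with independent noise, 74 of 100 changes of 0.5 and 97 of 100 changes of 1 (log2) were recovered among 45037 probe sets, with 8 false among 179 calls.

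As a check of pairing, same-numbered arrays of the 2 genotypes deviated together from their genotype means (r = 0.633 to 0.678), which the set accounts for: after set means were removed, r was 0.074 in set 1 and -0.058 in set 2. Alternatives covered the set term, blocks, single sets, normalization, filters, variance models, thresholds, a Y-linked covariate and leaving out each array. The number of arrays limits the precision.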

Additional observations from a re-analysis of the deposited data

Results flagged for a closer look

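In 3 of 46 groups of 4 arrays tested (1 genotype, both sets), 1 array stood far from the others, near the share of about 1 in 20 that chance gives. These are FoxO3 null array 1_2 in Insr 1434446_at, at 8.53 against 8.46 in the nearest array, wild type array 2_1 in Igf1r 1446303_at, at 6.80 against 6.65, and wild type array 2_2 in Igf2 1415931_at, at 5.19 against 4.98. Igfbp2 1454159_a_at was higher in both FoxO3 null arrays of set 1 and lower in both of set 2; the difference between sets, -0.22, did not pass the interaction test (limma adjusted p = 0.714, unadjusted p = 0.0748).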

How the results depend on the processing

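The 3 members that passed kept their sign in each of 24 other fits, and the call of Igf1r 1452982_at held in 17, Igfbp5 1452114_s_at in 12 and Insr 1434446_at in 9. The number of the 23 member probe sets that passed in limma was 0 with no set term (4 at an unadjusted p under 0.05), 1 with a replicate block, 0 in set 1 alone (6), 1 in set 2 alone, 1 with set as a random block, 5 with set and genotype together as a random block (where the estimated correlation was -0.264) and 0 after the paired arrays of a set and genotype were averaged (10). It was 5 with a variance trend, 0 with no moderation of the variance (7), 0 with the Y-linked covariate (2) and 0 at a threshold of 0.01 (10). Under the same settings, in that order, the 117 pathway probe sets gave 0, 0, 0, 3, 0, 7, 0, 4, 0, 0 and 0, and all 45037 gave 3, 138, 42, 146, 63, 1354, 39, 825, 0, 0 and 61 (5134 and 3199 unadjusted for the counts of 0). At a threshold of 0.1 the pathway gave 4 and all probe sets 714, and with 1 probe set per gene the pathway gave 1. Leaving out 1 array gave 0 to 2 members (0 without wild type array 2_1, 7 unadjusted), 0 to 1 pathway probe sets and 83 to 271 of all. The interaction, with 0 members, gave 1 with a variance trend and 0 without any 1 array. Quantile normalization again, median centring, a filter on dim probe sets, a robust variance model and array weights each left 3 members passing. Why these counts moved was not tested. Unadjusted counts of members printed without a count over all probe sets are not read as a result about the members. With all arrays and set as a term, 5724 of all 45037 had such an unadjusted p. Dim probe sets limit what can be said of Igf1 and Igf2.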
